A study of Mus musculus with 6 samples.

Results

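Satellite cells are the stem cells of skeletal muscle, and the genes described here mark their passage from rest to fusion. The set held 10 genes, chosen by name from the deposited count matrix of 54532 genes: Pax7, Pax3, Calcr, Vcam1, Cdh15, Myf5, Myod1, Myog, Myf6 and Mymk. All 10 were found, each as a single row, and 9 of them passed the filter on low counts. Messenger RNA was sequenced from gastrocnemius, a fast calf muscle, of C57BL/6J mice aged 3 months. The control group (Ctrl, 3 libraries) had the genotype Mck cre, a Cre recombinase under the muscle creatine kinase promoter. The other group (MP, 3 libraries) had the same driver together with Tg Glut1-Hk2-Pfkfb3, a transgene named for a glucose carrier, a hexokinase and a regulator of phosphofructokinase. Both groups drank 0.2% doxycycline, supplied from 4 weeks of age. The element on which doxycycline acts is not given in the sources used here, nor is whether each library of a group was made from its own mouse. The tests below therefore measure the spread among these 6 libraries, which may be technical. The Mck promoter is known for activity in differentiated fibres, the cells that make up nearly all of the tissue, rather than in satellite cells.

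In resting muscle a satellite cell lies between the fibre and its basement membrane and expresses Pax7, while its activation brings up Myf5 and Myod1. Commitment to differentiation follows with Myog, and fusion of the resulting myocytes needs Mymk. Myf5, Myod1, Myog and Myf6 are the myogenic regulatory factors, a family of basic helix-loop-helix proteins that pair with E proteins and bind E boxes, the motif CANNTG. Adult fibres also make some of these RNAs, Myf6 above all, and Myog is known to rise in fibres that lose their nerve.

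The libraries held 19546456 to 24665024 counts, and 14973 genes were tested. Control replicate 1 stood apart from the other 5 libraries, with correlations of log2 CPM of at most 0.961 to any of them. Its 12 lymphocyte and lymph node markers summed to 673 CPM (counts scaled to library size) against 7.89 to 58.9 CPM in the others, and its Glycam1, a mucin of lymph node vessels, was at 135 CPM against 0 in the rest. Its proliferation genes (96.3 CPM) were high as well, as were those of MP replicate 1 (108 CPM), against 48.7 to 52.2 CPM elsewhere, and MP replicate 1 also had the highest sum of 8 endothelial markers, at 719 CPM. The transgene's own names did not check the labels: Pfkfb3 was lower in every library labelled MP (log2 fold change -1.52 ± 0.57 SE, edgeR adjusted p = 0.196). Slc2a1 (-0.63 ± 0.31, adjusted p = 0.290) and Hk2 (0.44 ± 0.27, adjusted p = 0.381) differed in opposite directions and overlapped between groups. None of these genes passed the test. Directions below are therefore between libraries labelled MP and libraries labelled control. The fibre markers were abundant throughout, with Acta1 between 23097 and 30695 CPM. Results that rest on control replicate 1 are given with and without it.

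Among the 9 genes tested, Calcr alone passed an adjusted p of 0.05, as higher in the libraries labelled MP. Over all genes tested the same rule called 0.788% as higher and 0.508% as lower. Myf5 lay above, and Myog below, every control library, but both missed the threshold. Calcr and Myf5 had no overlap between groups upwards, against 13.8% of all genes, and Myog had none downwards, against 13.6%. Without control replicate 1 more were called: Calcr, Myf5, Myod1 and Vcam1 were higher and Myog was lower. In that fit 6.08% of all genes were called higher and 6.99% lower. Without any other single library, or with the replicate number as a block, 0 of the 9 were called. Those fits called 0 to 54 of the 14973 genes tested. An unadjusted p under 0.05, which 10.5% of all genes had as higher and 10.3% as lower, was reached by Calcr, Myf5 and Pax7 upwards and by Myog downwards. DESeq2, which called 3.89% of all genes higher and 3.22% lower, called Calcr and Myf5 higher and Myog lower. Calcr passed the filter through the MP libraries alone, as no control library reached its level of 0.428 CPM, so a gene like it could enter the test only by being high in that group. With every gene of at least 1 count tested, Calcr still passed (adjusted p = 0.0479).

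**Figure D1:**
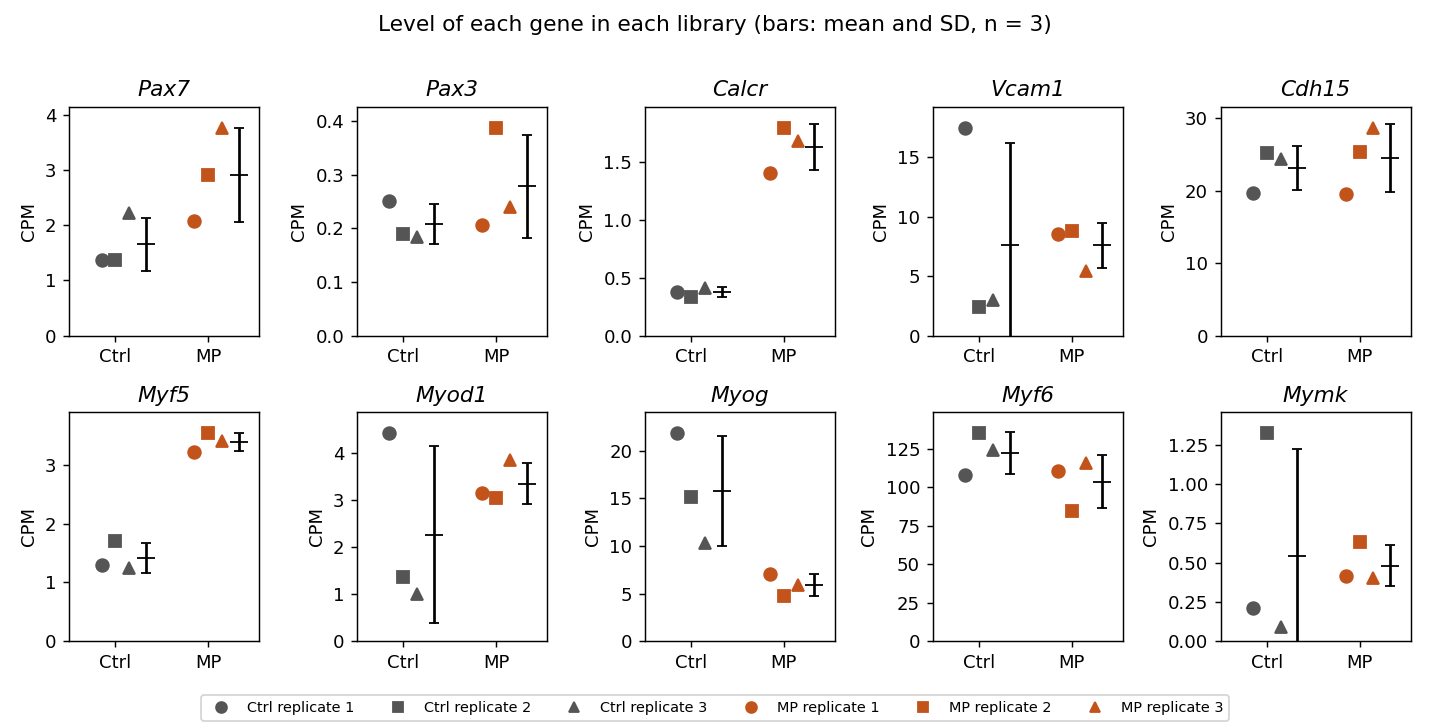
Level of each of the 10 genes in CPM (vertical axes start at 0) in the 3 control and 3 MP libraries, with the mean and SD at the right of each group. Calcr and Myf5 are above all controls in every MP library and Myog is below them, while control replicate 1 is the highest library for Vcam1 and Myod1. The SD bars of Vcam1 and Mymk in controls exceed their means and so run below the axis.

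These promoter windows are shown because their genes stood apart most between the groups, Calcr and Myf5 upwards and Myog downwards. Each runs from 250 bases before the start site to 50 after it (RefSeq, GRCm38.p6) and is written 5′ to 3′ on the gene's strand, with capitals on each E box. The Calcr window is chr6:3764664-3764963 (minus strand, the nearer of its 2 windows to the deposited start), that of Myf5 chr10:107486085-107486384 (minus strand) and that of Myog chr1:134289754-134290053 (plus strand).
Calcr: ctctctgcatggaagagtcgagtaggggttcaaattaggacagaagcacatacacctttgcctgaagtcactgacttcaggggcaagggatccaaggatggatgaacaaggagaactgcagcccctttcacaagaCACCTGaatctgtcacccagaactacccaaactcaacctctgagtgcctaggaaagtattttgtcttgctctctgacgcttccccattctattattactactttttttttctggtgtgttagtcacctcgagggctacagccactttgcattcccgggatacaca
Myf5: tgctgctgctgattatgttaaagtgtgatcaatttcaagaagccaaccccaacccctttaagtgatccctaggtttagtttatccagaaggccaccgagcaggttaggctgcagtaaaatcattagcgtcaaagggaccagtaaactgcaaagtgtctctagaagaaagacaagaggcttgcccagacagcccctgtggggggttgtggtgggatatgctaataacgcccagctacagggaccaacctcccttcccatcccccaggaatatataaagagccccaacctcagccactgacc
Myog: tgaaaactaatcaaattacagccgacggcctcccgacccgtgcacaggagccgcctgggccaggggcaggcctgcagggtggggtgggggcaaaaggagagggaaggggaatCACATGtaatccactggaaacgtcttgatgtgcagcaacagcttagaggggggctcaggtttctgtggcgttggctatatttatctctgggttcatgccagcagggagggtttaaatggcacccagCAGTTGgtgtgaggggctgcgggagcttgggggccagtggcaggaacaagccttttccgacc
The Myog window held 2 E boxes, CACATG at 138 and CAGTTG at 12 bases before the start site, and the Calcr window held 1, CACCTG at 115 bases before it. The letters CANNTG, the same on both strands, were not in the Myf5 window. Among 32851 windows of 300 bases, 72.3% held at least 1 E box, so these matches are a description of the windows. Of the 10 genes 5 had a window in the table, the other 2 being Pax7, with 0 E boxes, and Cdh15, with 4.

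Genes of rest and identity came first. Pax7 (ENSMUSG00000028736, chromosome 4, 139737062 to 139833528), the paired-box factor that defines satellite cells, had 1.38, 1.37 and 2.21 CPM in control replicates 1, 2 and 3 and 2.07, 2.91 and 3.76 CPM in MP replicates 1, 2 and 3. The groups overlapped only through MP replicate 1, which lay just under control replicate 3. The mean went from 1.65 ± 0.484 to 2.91 ± 0.849 CPM (SD, n = 3 each), a log2 fold change of 0.82 ± 0.33 (SE, 95% interval 0.06 to 1.58), which did not pass (edgeR adjusted p = 0.214). These values rest on 29 to 48 counts per control library and 50 to 94 per MP library. In whole muscle, more satellite cells and more RNA per cell cannot be told apart. Pax3 (ENSMUSG00000004872, chromosome 1, 78101267 to 78197134), the paralogue that acts in embryonic limb muscle, had 6, 4 and 4 counts in controls and 5, 8 and 6 in the MP libraries. It was therefore near the 3-count floor of 0.120 to 0.145 CPM in every library, failed the filter and was not tested. Its pooled count ratio was 1.30, with a counting interval of 0.618 to 2.80, so a difference was not detectable at this depth.

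Calcr (ENSMUSG00000023964, chromosome 6, 3685680 to 3764714) encodes the calcitonin receptor, a surface receptor of quiescent satellite cells whose signal holds them at rest. Its counts were 9, 7 and 9 in controls and 34, 37 and 42 in the MP libraries. In CPM these were 0.375, 0.331 and 0.415 against 1.40, 1.79 and 1.68, with no overlap. The mean rose from 0.374 ± 0.0421 to 1.63 ± 0.200 CPM, which was 4.35-fold (log2 fold change 2.10 ± 0.31 SE, interval 1.38 to 2.82, edgeR adjusted p = 0.0324). A two-sided exact permutation test over the libraries gave p = 0.1, its lower limit with 3 against 3. The fold change moved little when each library was left out in turn, from 2.03 to 2.21 in log2. The call did not hold in the same way: it was kept without control replicate 1 (adjusted p = 0.0183) and lost without control replicates 2 (0.0992) and 3 (0.152) and without MP replicates 1 (0.0708), 2 (0.133) and 3 (0.162). It was also lost with the replicate number as a block (0.0957), and over all alternatives the adjusted p ran from 0.00242 to 0.162.

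Calcr is also the host gene of a pair of microRNAs on its own strand, of which miR-489 is known for keeping satellite cells at rest. Both lie inside the gene, mmu-miR-489-3p at chr6:3721922-3721944 and mmu-miR-653-5p at chr6:3721355-3721375 (RefSeq, GRCm38.p6, minus strand). They are shown, with the seed (bases 2 to 8) in capitals, because the counts of that gene were higher in the MP libraries. Whether they share the transcript counted was not measured.
mmu-miR-489-3p: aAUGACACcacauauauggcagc
mmu-miR-653-5p: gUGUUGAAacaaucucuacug
The seeds differ. The rows Mir489 and Mir653 had 0 counts over the 6 libraries, in a library type not made for small RNAs, so the mature microRNAs were not measured.

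Vcam1 and Cdh15 act at the cell surface. Vcam1 (ENSMUSG00000027962, chromosome 3, 116109949 to 116129688), an adhesion molecule of satellite cells and also of endothelium and lymphoid stroma, had 17.5 CPM in control replicate 1 and 2.41 and 3.00 CPM in control replicates 2 and 3. The MP libraries had 8.55, 8.77 and 5.41 CPM, below control replicate 1 and above both other controls. Over all 6 libraries Vcam1 had a log2 fold change of -0.02 ± 0.70, with an interval of -1.64 to 1.59 (edgeR adjusted p = 0.989). Leaving that library out gave 1.48 ± 0.28 (interval 0.84 to 2.13, adjusted p = 0.0220), a ratio of mean CPM of 2.80. Among the alternatives the adjusted p of Vcam1 ran from 0.0220 to 0.999. The library with the highest Vcam1 was also the highest in lymph node genes, with 13.2 CPM of Cr2, a marker of B cells and follicular dendritic cells, against at most 0.142 CPM elsewhere. It also had the most macrophage marker RNA, at 184 CPM. The macrophage sum was 38.9 and 64.5 CPM in control replicates 2 and 3 and 68.6, 97.7 and 81.3 CPM in the MP libraries. Like Vcam1, it was thus higher in every MP library than in those 2 controls. The part of these cells in the Vcam1 values was not tested.

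Cdh15 (ENSMUSG00000031962, chromosome 8, 122847966 to 122867397), M-cadherin, which joins the satellite cell to its fibre, had 19.7, 25.2 and 24.4 CPM in controls and 19.5, 25.3 and 28.7 CPM in the MP libraries. The groups overlapped almost wholly. The log2 fold change was 0.09 ± 0.18, and its interval of -0.33 to 0.50 leaves out a change of the size seen for Calcr (adjusted p = 0.815). Counted against Cdh15 within each library, Pax7 had 0.0699, 0.0543 and 0.0906 counts per Cdh15 count in controls and 0.106, 0.115 and 0.131 in the MP libraries. These ratios need no scaling between libraries and did not overlap. The pair was chosen after its values were seen, so the ratio is a description.

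**Figure D2:**
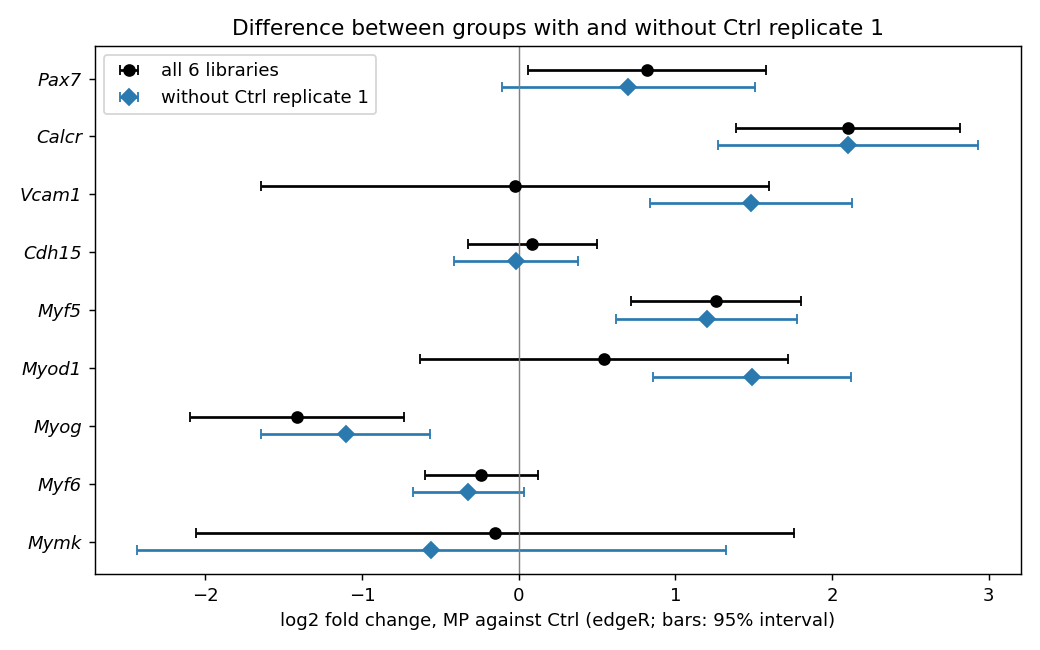
Log2 fold change of the 9 tested genes, MP against control, with 95% intervals (horizontal axis), from all 6 libraries (circles) and without control replicate 1 (diamonds). Vcam1 moves from -0.02 to 1.48 and Myod1 from 0.54 to 1.49 when that library is left out, while Calcr stays at 2.10 and Myog goes from -1.41 to -1.10.

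The factors of commitment, Myf5 and Myod1, differed in how far the controls were spread. Myf5 (ENSMUSG00000000435, chromosome 10, 107482908 to 107486134), the earliest myogenic factor in development and already transcribed in many quiescent satellite cells, had 1.29, 1.70 and 1.24 CPM in controls and 3.22, 3.54 and 3.40 CPM in the MP libraries. No MP library came near the control range. The mean was 1.41 ± 0.251 against 3.39 ± 0.158 CPM, a log2 fold change of 1.26 ± 0.23 (interval 0.72 to 1.80). It narrowly missed the threshold (edgeR adjusted p = 0.0518). The counts were 31, 36 and 27 against 78, 73 and 85. Of the 15 alternatives 6 called it, among them the fit without control replicate 1 (log2 fold change 1.20, adjusted p = 0.0271), and the adjusted p ran from 0.00572 to 0.209.

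Myod1 (ENSMUSG00000009471, chromosome 7, 46376474 to 46379099), the factor that comes on as satellite cells activate and that fast fibres also express, had 4.42 CPM in control replicate 1 against 1.37 and 1.01 CPM in control replicates 2 and 3. The MP libraries were close to each other, at 3.14, 3.05 and 3.84 CPM, between that library and the other controls. Over all libraries Myod1 had a log2 fold change of 0.54 ± 0.50, with an interval of -0.63 to 1.72 (edgeR adjusted p = 0.569). Leaving that library out gave 1.49 ± 0.27 (interval 0.86 to 2.12, adjusted p = 0.0209), and the ratio of mean CPM was 2.81. That was the only alternative among the 15 to call Myod1, and the adjusted p over them reached 0.877. Counts of Myod1 per count of Myf5 were 0.974, 0.863 and 1.13 in the MP libraries and 0.806 and 0.815 in control replicates 2 and 3, against 3.42 in control replicate 1. Control replicate 1 thus held the excess of Myod1 without one of Myf5, of which it had 31 counts.

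Myog (ENSMUSG00000026459, chromosome 1, 134289989 to 134292548), myogenin, the factor of terminal differentiation, had 21.8, 15.2 and 10.3 CPM in controls and 7.02, 4.75 and 5.93 CPM in the MP libraries. Every MP library lay under the lowest control, and the control libraries were themselves spread more than 2-fold. The mean was 15.8 ± 5.79 against 5.90 ± 1.14 CPM, 2.67-fold higher in controls (log2 fold change -1.41 ± 0.29, interval -2.10 to -0.73). Its edgeR adjusted p of 0.0688 missed the threshold, and the adjusted p ran from 5.68e-04 to 0.230 over the alternatives, of which DESeq2 and the fit without control replicate 1 (log2 fold change -1.10, adjusted p = 0.0281) called it lower. Myog differed in the direction opposite to Myf5 and Calcr in each of the 15 alternatives. These reuse the same libraries, in which none of these genes overlapped between groups, so the shared sign is not independent support.

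Myf6 (ENSMUSG00000035923, chromosome 10, 107492853 to 107494737), also called MRF4 and the myogenic factor that adult fibres express most, had 108, 135 and 124 CPM in controls and 111, 84.5 and 116 CPM in the MP libraries. The groups overlapped, and Myf6 had a log2 fold change of -0.24 ± 0.16, with an interval of -0.60 to 0.12 (adjusted p = 0.414). Its neighbour Myf5 lies 6.72 kb away on the same strand of chromosome 10. Within a library there were 0.0120, 0.0126 and 0.0100 counts of Myf5 per count of Myf6 in controls and 0.0290, 0.0419 and 0.0293 in the MP libraries. The adjacent genes therefore did not differ in step between the groups.

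Mymk (ENSMUSG00000009214, chromosome 2, 27061636 to 27072179), myomaker, the membrane protein that fusing myocytes need, had 5, 28 and 2 counts in controls and 10, 13 and 10 in the MP libraries. Control replicate 2 held most of the control counts, and the MP libraries lay between it and the other controls. The log2 fold change was -0.15 ± 0.82 with an interval from -2.06 to 1.76 (edgeR adjusted p = 0.938), which leaves changes in either direction undetectable. Its sign turned without control replicate 2 (1.60, adjusted p = 0.273). Mymx, the micropeptide partner of Mymk in fusion, named here after its values were seen, had 5, 2 and 0 counts in controls and 13, 8 and 14 in the MP libraries. It failed the filter, and its pooled ratio of 4.79 had a counting interval of 2.10 to 12.8.

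**Figure D3:**
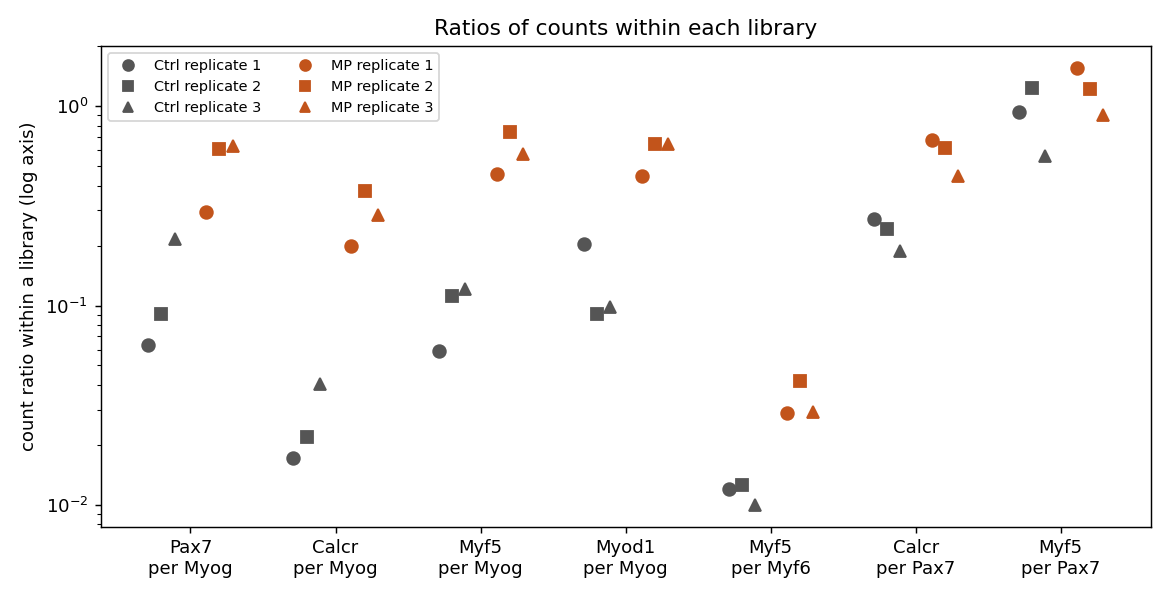
Ratio of the counts of gene pairs within each library (vertical axis, logarithmic) for the 3 control and 3 MP libraries. Every ratio to Myog is higher in all MP libraries than in all controls, as are Myf5 per Myf6 and Calcr per Pax7, whereas Myf5 per Pax7 overlaps.

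The balance between early and late genes was read from counts within each library, with pairs chosen after their values were seen, so these ratios are a description. There were 0.0593, 0.112 and 0.121 counts of Myf5 per count of Myog in controls and 0.459, 0.745 and 0.574 in the MP libraries. Counts of Pax7 per count of Myog were 0.0631, 0.0903 and 0.215 against 0.294, 0.612 and 0.635. Neither ratio overlapped between the groups, which for Myf5 per Myog follows from the lack of overlap of each gene in opposite directions. For Myod1 per Myog the controls were at 0.203, 0.0903 and 0.0987 and the MP libraries at 0.447, 0.643 and 0.649. This ratio put control replicate 1 on the side of the other controls, since its Myog was high together with its Myod1. Calcr per Pax7 was 0.273, 0.241 and 0.188 in controls and 0.680, 0.617 and 0.447 in the MP libraries, without overlap. This ratio rests on 9, 7 and 9 counts of Calcr in controls. The intervals of the log2 fold changes overlapped (1.38 to 2.82 for Calcr and 0.06 to 1.58 for Pax7), so a change in step is not settled. Myf5 per Pax7 overlapped, at 0.563 to 1.24 against 0.904 to 1.56.

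On a scale corrected for gene length (the deposited FPKM), mean levels ran from 89.5 FPKM for Myf6 to 0.0392 FPKM for Pax3. Myf6 was the highest, between 66.9 and 107 FPKM, above every other gene of the set in each library. Cdh15 (5.95 to 8.88 FPKM) and Myog (3.18 to 14.5 FPKM) followed with overlapping ranges. Cdh15 was above Myog in 4 of 6 libraries, the 3 MP libraries and control replicate 3. Myod1 (0.546 to 2.36 FPKM), Myf5 (0.598 to 1.70 FPKM) and Vcam1 (0.271 to 1.96 FPKM) had overlapping ranges and are not ordered beyond their spread. The same held for Pax7 (0.233 to 0.646 FPKM), Mymk (0.0611 to 0.874 FPKM) and Calcr (0.0844 to 0.458 FPKM). Pax3 was the lowest, at 0.0298 to 0.0627 FPKM, under Calcr in 6 of 6 libraries.

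The wider set of satellite cell surface, quiescence and Notch genes had 2 of 25 tested genes higher and 0 lower. Over all genes tested these shares were 0.788% and 0.508%. Itga7, the laminin-binding integrin of satellite cells and fibres, had 66.7, 63.6 and 63.0 CPM in controls and 146, 110 and 106 CPM in the MP libraries (log2 fold change 0.91 ± 0.15, edgeR adjusted p = 0.0406). Fgfr4, a fibroblast growth factor receptor of myogenic cells, had 4.05, 3.69 and 2.40 CPM against 7.73, 8.58 and 9.13 CPM (1.32 ± 0.23, adjusted p = 0.0463). Each was called in 7 of 15 alternatives. Both calls were lost with the replicate block (0.0870 and 0.104) and without any library other than control replicate 1, with adjusted p up to 0.178 for Itga7 and 0.197 for Fgfr4. Without each library in turn the log2 fold change ran from 0.76 to 0.99 for Itga7 and from 1.13 to 1.48 for Fgfr4. The median log2 fold change of the list was 0.34, against -0.03 over all genes tested. The list had 7 genes higher and 1 lower without control replicate 1, where 6.08% of all genes were called higher and 6.99% lower. Of the 25 genes, 8 lay above every control in all MP libraries and 2 lay below, against 13.8% and 13.6% of all genes. The 2 below were Fgfr1 and Cdkn1b, named here after their values were seen. Fgfr1 went from 224 ± 48.6 to 142 ± 20.0 CPM (-0.66 ± 0.19, edgeR adjusted p = 0.126). It was the 1 gene called lower without control replicate 1 (-0.81, adjusted p = 0.0201).

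Partners of Calcr and Vcam1 had 0 of 11 genes past the threshold in edgeR in either direction, with 3 further genes not tested. At an unadjusted p under 0.05 it had 5 higher and 2 lower, where all genes had 10.5% and 10.3%, and DESeq2 called 3 higher and 1 lower, where all genes had 3.89% and 3.22%. The same shares over all genes apply to the counts of this kind in the lists that follow. The shares given above for the fit without control replicate 1 apply to the counts without that library here and below. Closest were Ramp1, which turns the calcitonin receptor into an amylin receptor and went from 28.8 ± 3.60 to 17.9 ± 0.718 CPM (-0.68 ± 0.13, adjusted p = 0.0601), and Itgb1, the beta chain of the Vcam1 receptor, at 208 ± 28.9 against 334 ± 9.80 CPM (0.68 ± 0.14, adjusted p = 0.0663). When control replicate 1 was left out this list had 5 higher and 1 lower, and both genes passed (0.0257 and 0.0231). The partners and regulators of the myogenic factors, such as E proteins and Id and Mef2 genes, had 0 of 33 past the threshold in edgeR and a median of 0.07. At an unadjusted p under 0.05 there were 4 higher and 2 lower, and DESeq2 called 1 higher and 1 lower. Msc, musculin, a repressor of myogenic factors, had 5.17, 3.97 and 3.60 CPM in controls and 8.93, 7.22 and 6.85 CPM in the MP libraries, without overlap (0.85 ± 0.21, adjusted p = 0.0977). When control replicate 1 was left out, 3 genes of this list were higher, Msc among them (adjusted p = 0.0243), and 1 was lower.

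**Figure D4:**
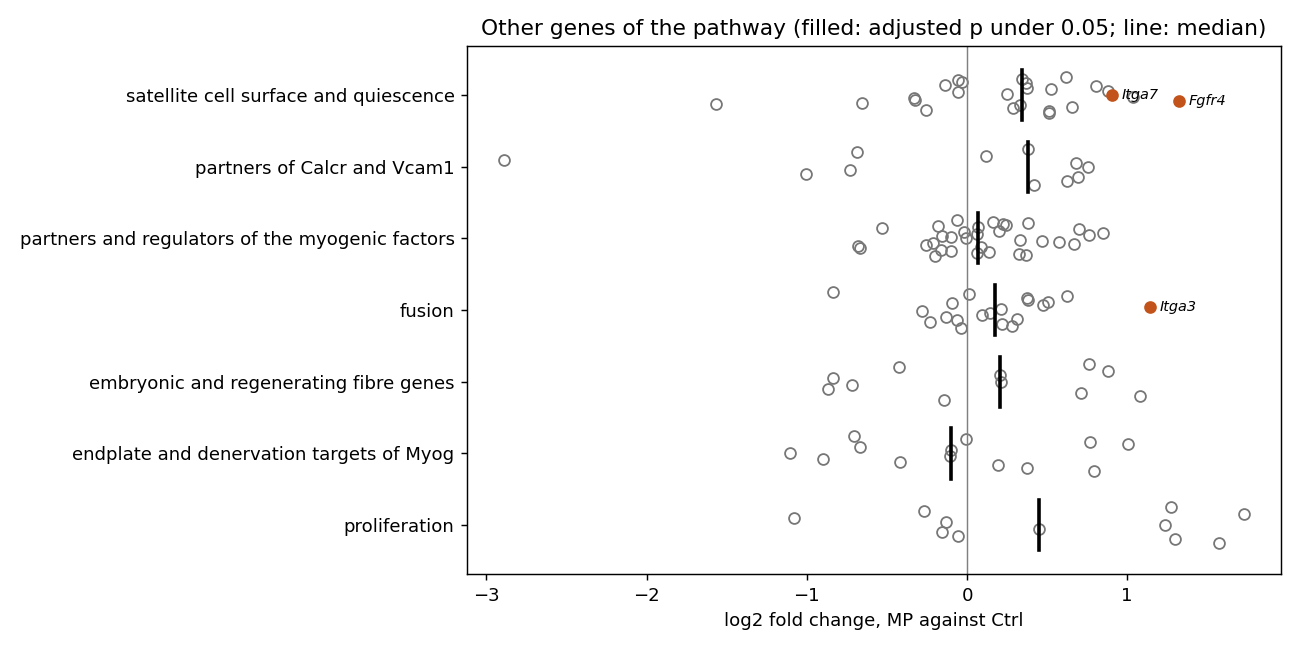
Log2 fold change, MP against control (horizontal axis), of every tested gene in 7 lists of pathway genes; filled points passed an adjusted p of 0.05 and vertical lines are medians. Itga7, Fgfr4 and Itga3 are the only filled points, and the medians lie between -0.10 (endplate and denervation) and 0.45 (proliferation).

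Against 0.788% higher and 0.508% lower over all genes, the fusion list had 1 of 20 tested genes higher and 0 lower. This was Itga3, an integrin chain that binds laminin, at 7.38, 6.85 and 6.04 CPM in controls and 17.5, 13.5 and 13.8 CPM in the MP libraries (log2 fold change 1.14 ± 0.17, edgeR adjusted p = 0.0354). Its call too was lost with the replicate block (0.0870) and without any library other than control replicate 1, with adjusted p up to 0.159, while the log2 fold change ran from 1.03 to 1.21 without each library. The fusion list had 4 higher and 0 lower without control replicate 1. Genes of embryonic and regenerating fibres had 0 of 11 past the threshold in edgeR (2 higher and 1 lower at an unadjusted p under 0.05, 1 higher in DESeq2), with Ankrd1, a stress-responsive ankyrin protein, at 1.08 ± 0.30 (adjusted p = 0.120) and the adhesion molecule Ncam1 at 0.88 ± 0.26 (0.135). Leaving out control replicate 1, the list had 0 higher and 1 lower.

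Genes of the endplate and of denervation, several of them Myog targets, had 0 of 13 past the threshold in edgeR and a median of -0.10. At an unadjusted p under 0.05 there were 3 higher and 4 lower, and DESeq2 called 1 in each direction. They did not differ one way. Chrna1, the alpha chain of the acetylcholine receptor, had 15.3, 18.6 and 17.0 CPM in controls and 25.3, 31.0 and 31.6 CPM in the MP libraries (0.79 ± 0.14, adjusted p = 0.0512), opposite in sign to Myog. Dach2, a repressor of Myog in innervated muscle, had 2.17, 2.55 and 2.72 CPM against 1.45, 1.07 and 1.44 CPM (-0.90 ± 0.25, adjusted p = 0.118). Leaving out control replicate 1, the list had 1 higher and 3 lower. The proliferation list had 0 of 11 past the threshold in edgeR, 0 at an unadjusted p under 0.05 and 0 in DESeq2, with Pcna, the sliding clamp of DNA replication, at -0.27 ± 0.12 (adjusted p = 0.255) and Mki67, a marker of cycling cells, at 1.73 ± 1.22 (0.452). Leaving out control replicate 1, the list had 2 higher and 0 lower, the cyclins Ccnd1 (1.12, adjusted p = 0.0447) and Ccnd2 (0.88, adjusted p = 0.0296), both named after their values were seen. Mki67 was at 20.0 CPM in MP replicate 1, against 4.88 CPM in control replicate 1 and 0.461 to 1.44 CPM in the other 4 libraries. Pax7 was the lowest of the MP libraries in that replicate.

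**Figure D5:**
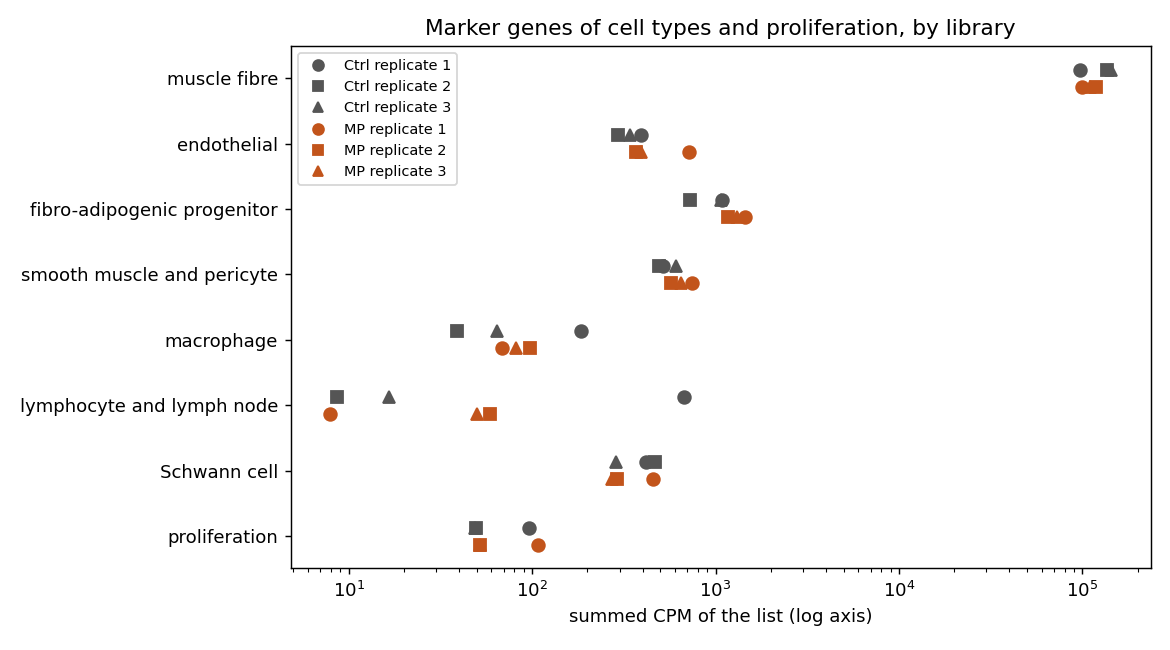
Summed CPM (horizontal axis, logarithmic) of marker lists of fibres and of other cell types, and of the proliferation list, in each of the 6 libraries. Control replicate 1 stands apart in lymphocyte and lymph node genes (673 CPM) and in macrophage genes (184 CPM), and MP replicate 1 in endothelial genes (719 CPM).

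Other cells that sit beside satellite cells also differed between libraries. The 8 markers of fibro-adipogenic progenitors summed to 728 to 1091 CPM in controls and 1176 to 1444 CPM in the MP libraries, without overlap, and all 8 had a positive log2 fold change. None of them passed in edgeR, 3 had an unadjusted p under 0.05, DESeq2 called 2 higher, and 3 were higher without control replicate 1. The endothelial sum was 294 to 393 CPM in controls and 367 to 719 CPM in the MP libraries, and all 8 endothelial markers had a positive log2 fold change (median 0.52), 2 of them with an unadjusted p under 0.05 and 0 past the threshold in edgeR or DESeq2. The 7 smooth muscle and pericyte markers summed to 493 to 612 against 575 to 749 CPM, with a median log2 fold change of 0.66. Of these 7, 5 had a positive and 2 a negative log2 fold change. None of the 7 passed in edgeR, 5 were higher at an unadjusted p under 0.05, and DESeq2 called 3 higher. In all MP libraries 4 lay above every control, against 13.8% of all genes. The 6 Schwann cell markers overlapped, at 287 to 467 against 273 to 455 CPM. The fibre markers summed to 97141 to 143910 CPM in controls and 99279 to 118322 CPM in the MP libraries, and 9 of 10 had a negative log2 fold change, with 0 past the threshold in edgeR or DESeq2 and 0 at an unadjusted p under 0.05. The part of these shifts in the differences of Calcr, Myf5 and Pax7 was not tested.

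The genes whose log2 CPM followed Pax7, Calcr and Myog most closely over the 6 libraries were taken from 11005 protein-coding candidates. For Pax7 they were Arfip1, Plpp3 and Flt1 (Pearson r = 0.989, 0.986 and 0.982). Those for Calcr were Setd5, Rab11fip5 and Slc15a5 (0.996, 0.996 and 0.995), and those for Myog were Pcna, Cactin and Srrt (0.993, 0.990 and 0.988). These values are the highest of many candidates over 6 points that share libraries and groups, and they describe likeness only. Flt1, a receptor of vascular endothelial growth factor, is an endothelial gene. Setd5, Rab11fip5 and Slc15a5 all lie on chromosome 6, as Calcr does. Each was called higher in the MP libraries (edgeR adjusted p = 0.0175, 0.0188 and 0.00120). Slc15a5 had 2, 1 and 1 counts in controls and 98, 137 and 193 in the MP libraries. Of the genes named for Pax7 and Myog, only Plpp3 shares its member's chromosome, which is 4. Whether chromosome position has a part in the Calcr difference was not tested.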

How the data were processed

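Gastrocnemius RNA was sequenced in 3 Ctrl and 3 MP libraries, and groups and replicate numbers come from the sample titles. Per the labels' protocols, libraries were made with the NEBNext Ultra kit from 3 µg of Trizol-extracted RNA. The submitters' processing notes name HISAT2 2.0.5, featureCounts 1.5.0-p3 and build GRCm38. How strand was handled, and which annotation release, is not given in the sources used here. Per the file headers, the authors deposited raw counts and FPKM per Ensembl gene. From the values, each deposited FPKM is the count over the product of gene length and 1 size per library. Positions are those of the deposited table and equal GENCODE M21 for all 10 genes. The genes that overlap these genes in the table had 0 counts.

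Tests on the counts used edgeR 4.0.16 under R 4.3.3 (TMM scaling, filterByExpr, quasi-likelihood test, Benjamini-Hochberg adjustment over 14973 genes, threshold 0.05), after a test on simulated data. P-values are two-sided. SE is the size of the log2 fold change over the root of F, CPM uses TMM library sizes, and errors after means are SDs. Counting intervals are exact 95% Poisson intervals and, like the 3-count floor, cover counting error only. Log2 CPM for likeness and library correlations used a prior count of 2, and candidates for likeness had a mean of at least 2 CPM.

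Alternatives were other scalings and filters, DESeq2 1.42.0, limma 3.58.1 (voom, and log2(FPKM + 1) or log2(FPKM + 0.1)), a replicate block, and fits without each library. All 10 members were named. Of each gene list, called members were named, up to 4, or the 2 with the smallest p. A gene that this rule names is not reported here. The members and lists were chosen with earlier results of these data known.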

Additional observations from a re-analysis of the deposited data

How the results depend on the processing

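Over 15 alternatives the 9 tested genes gave 134 log2 fold changes, of which 104 kept both direction and side of the threshold, 6 (all Calcr) lost the call, 10 gained it and 15 changed sign. Vcam1 without control replicate 1 is 1 of both the last groups. The changes of sign were in Cdh15, Mymk and Vcam1, none of them called with all libraries. The number of genes past the threshold, 194, was 1065 with DESeq2, 124 without the filter, 112 and 121 with limma on log2(FPKM + 1) and log2(FPKM + 0.1), and 0 to 1956 without each library in turn, from control replicate 3 (0 in edgeR, 2116 at an unadjusted p under 0.05) to control replicate 1 (1956). Of the set, 1 gene passed, against 2 with library totals alone, 2 with the filter of 1 CPM in 3 libraries, 3 with DESeq2, 2 with each FPKM fit, and 0 to 5 without each library. Scaling by library totals changed the split from 118 higher and 76 lower to 205 and 54, moved the median of all genes from -0.03 to 0.12 and kept the direction of Calcr, Myf5, Pax7, Myod1 and Myog.

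Mymk had log2 fold changes of 0.014 with library totals, 0.59 with voom, 0.0041 and 0.31 in the FPKM fits, and -0.64 to 1.60 without each library. Vcam1 had 0.0054, 0.50, 0.11 and 0.43 in the same order, and -0.44 to 1.48 without each library. Cdh15 had -0.044 to 0.24 without each library. The cause was not tested.

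With the replicate number as a block, 5 genes passed in edgeR and 0 of the set (4 of the set at an unadjusted p under 0.05), and Mymk had 0.090 and Vcam1 0.48. Same-numbered libraries correlated at -0.024, -0.17 and 0.16 in their deviations from group means. Differently numbered pairs ran from -0.17 to 0.18. So few pairs, which constrain each other, cannot settle whether the numbers mark a pairing. Depth limits Pax3, Mymk and Calcr in controls, where counts were 2 to 28 per library.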
